A study of Rattus norvegicus with 6 samples.

Results

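The matrix-binding integrins described here are 10 subunit genes, chosen by gene symbol from a table of 23091 rat genes that holds 26 integrin subunit symbols. The alpha subunit genes are Itga1, Itga2, Itga11, Itga3, Itga7, Itga5 and Itgav, and the beta subunit genes are Itgb1, Itgb3 and Itgb5. RNA was measured in wild-type (WT) rat mesenchymal stem cells of the marrow, the adherent stromal cells that form colonies in culture. In 3 samples, named CYSP, the neural differentiation medium contained CYSP, a treatment whose components the labels do not spell out. In 3 samples, named CK, it contained the solvent DMSO. Both groups were kept for 7 days in that medium, which the controls therefore shared. The labels give neither age nor sex nor passage, and they do not say whether the replicates were separate cultures or animals. Each p-value therefore sets a difference only against the variation among these samples, and that variation may be technical.

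Integrins are cell-surface receptors made of one alpha and one beta subunit, which bind matrix proteins outside the cell and the actin skeleton inside it through talin and kindlin. The alpha subunit largely sets the ligand. Itga1, Itga2 and Itga11 form collagen receptors, Itga3 and Itga7 form laminin receptors, and Itga5 and Itgav bind proteins that carry the Arg-Gly-Asp (RGD) sequence, such as fibronectin and vitronectin. Itgb1 pairs with all of these alpha subunits, whereas Itgb3 and Itgb5 pair with Itgav. In marrow stromal cells, integrins hold the cells on their matrix and pass on its stiffness.

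The 6 libraries held 15060933 to 17244700 counts each. A gene with 0 counts could still stand at up to 3 counts, or 0.169 to 0.205 CPM (counts scaled to the TMM-adjusted library total), which covers counting error only. Levels of the integrin genes are given as the authors' FPKM, which scales fragments to gene length and library size, and fold changes come from the counts. Marker calls are read against all 12623 genes tested, of which 38.2% were higher and 37.8% were lower in CYSP. The labelled cell type was checked against 6 stromal surface markers, of which 5 were higher and 1 was lower in CYSP. Their summed level was 2267 to 2291 CPM in CYSP and 1771 to 1821 CPM in CK. Of 11 macrophage and leukocyte markers 9 were tested, 6 were lower and 2 were higher in CYSP, and Cd3e had no count. Their sum was 542 to 555 CPM in CYSP and 929 to 1047 CPM in CK. Adgre1 alone had a mean of 212 CPM in CYSP and 554 CPM in CK. The 2 higher genes were Cd163 and Mrc1, with log2 fold changes of 8.45 and 1.00. Cd163 had 761 counts over the CYSP group and 2 over the CK group, so the size of its change is only loosely set. Of 6 smooth muscle markers 5 were lower, with a sum of 10.2 to 16.7 CPM in CYSP and 7530 to 7743 CPM in CK. Of 6 endothelial markers 4 were tested, 2 higher and 2 lower, with a sum of 2.57 to 4.23 CPM in CYSP and 9.23 to 12.02 CPM in CK. Of 6 platelet and megakaryocyte markers only Pf4 was tested and it was higher, with a sum of 47.4 to 50.9 CPM in CYSP and 7.66 to 8.94 CPM in CK, while Gp9 and Ppbp had no count. The part of these other cells in the integrin results was not tested.

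The integrin genes split evenly between treated and control cells. In CYSP the laminin receptor genes Itga7 and Itga3 were 10.7-fold and 7.12-fold higher, the collagen receptor gene Itga2 was 3.19-fold higher, and the RGD receptor genes Itgav and Itga5 were 1.43-fold and 1.21-fold higher. Itga11, the second most abundant of these genes in control cells, was 32.5-fold lower, and Itga1 and the beta subunit genes were 1.40-fold to 2.74-fold lower. Each of the 10 genes passed the filter on low counts and the test (the quasi-likelihood test of edgeR, adjusted by Benjamini-Hochberg over 12623 genes, threshold 0.05), 5 of them higher and 5 lower. Of all genes tested, 76.1% passed in either direction, 38.2% were higher and 37.8% were lower, so that a call alone sets the integrin genes little apart. At a change of at least 2-fold 3 integrin genes were higher and 3 were lower. Of all genes tested 27.8% met that rule, 15.2% higher and 12.7% lower. No CYSP sample overlapped a CK sample in any of the 10 genes, as in 77% of all genes tested. Their median log2 fold change was -0.11, against 0.00461 over all genes tested.

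The samples of a group varied little, with a common biological coefficient of variation of 0.0393 over all genes. Where a coefficient of 0.2 was assumed instead, the calls of Itga5, Itgav and Itgb5 ended, and with 0.4 those of Itgb1 and Itga1 ended as well.

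**Figure D1:**
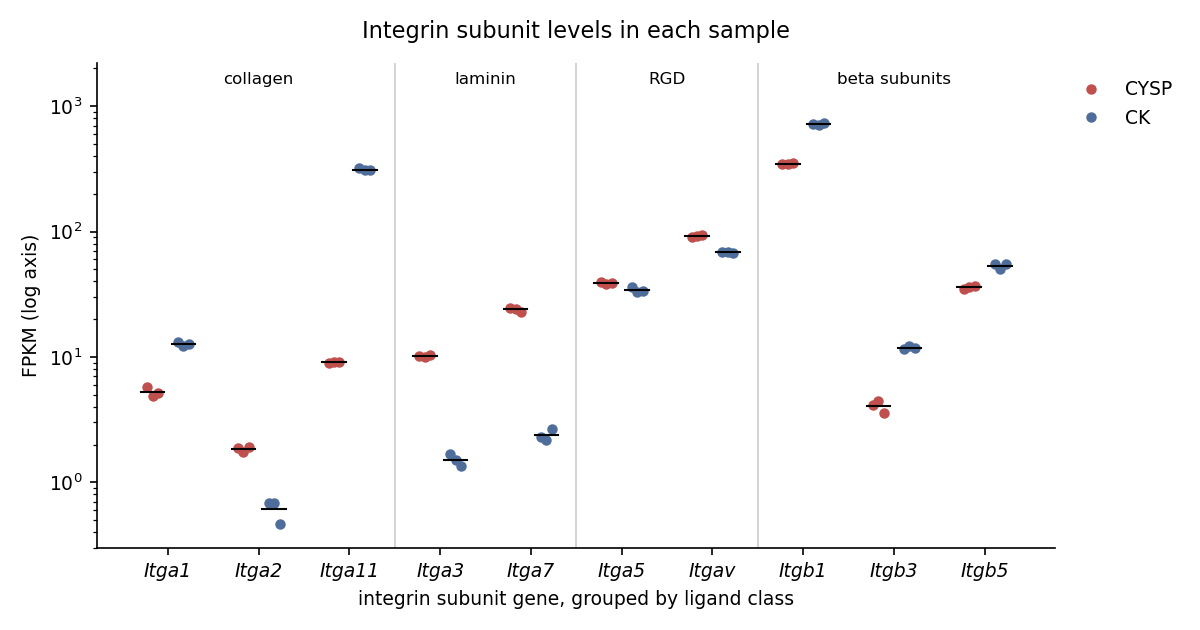
Level of each integrin subunit gene in each sample, in FPKM on a log axis, with CYSP samples in red on the left and CK samples in blue on the right of each gene, and a black line at each group's mean. Itga11 stood at 8.90 to 9.17 FPKM in CYSP and 307 to 320.3 FPKM in CK, and the groups were apart in all 10 genes.

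Itga11, Itgb1 and Itga3 are shown by the 250 bases before their gene start, being the gene that differed most, the most abundant one, and that with the largest rise among those with an entry. The sequences are RefSeq's for the rat build GRCr8 and were matched by symbol, which succeeded for 8 of the 10 genes. The Itga11 stretch is chr8:72041182-72041431 on the plus strand, that of Itgb1 is chr19:73602027-73602276 on the plus strand, and that of Itga3 is chr10:80518902-80519151 on the minus strand. Which start these cells use was not measured. Each runs 5′ to 3′ on the gene's strand, and capitals mark a GC box (GGGCGG, the motif of SP1-type factors) or a TEAD core (GGAATG), on either strand.
Itga11: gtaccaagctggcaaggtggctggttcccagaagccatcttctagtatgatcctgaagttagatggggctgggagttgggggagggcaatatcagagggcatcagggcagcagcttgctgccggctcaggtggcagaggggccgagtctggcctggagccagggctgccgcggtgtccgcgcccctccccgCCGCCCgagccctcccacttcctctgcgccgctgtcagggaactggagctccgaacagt
Itgb1: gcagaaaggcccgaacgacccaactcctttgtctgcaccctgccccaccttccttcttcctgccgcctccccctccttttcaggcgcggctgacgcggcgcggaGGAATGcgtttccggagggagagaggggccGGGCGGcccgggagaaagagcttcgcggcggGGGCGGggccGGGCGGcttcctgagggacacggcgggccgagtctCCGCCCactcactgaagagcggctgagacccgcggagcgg
Itga3: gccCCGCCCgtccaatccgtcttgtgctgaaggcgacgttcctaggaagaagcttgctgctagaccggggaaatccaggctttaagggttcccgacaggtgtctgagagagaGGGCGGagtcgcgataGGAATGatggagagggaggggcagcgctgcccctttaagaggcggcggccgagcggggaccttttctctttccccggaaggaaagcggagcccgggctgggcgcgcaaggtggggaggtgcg
The Itga11 stretch held 1 GC box, that of Itgb1 held 4 GC boxes and 1 TEAD core, and that of Itga3 held 2 GC boxes and 1 TEAD core, none of them overlapping. Over the 8 integrin genes with an entry, 6 held a GC box, all but Itga1 and Itgb5, against 30.5% of 33469 stretches of the same length. The TEAD core stood in 2 of the 8, Itga3 and Itgb1, against 12.1% of all stretches. So the TEAD core stood before one gene that was higher and one that was lower in CYSP, and the GC box before genes of both directions. The AP-1 letters TGANTCA stood in none of the 8 on either strand and in 6.34% of all stretches. The hypoxia core ACGTG stood in none of the 8 and in 16.6% of all stretches. A TATA box, searched as TATAAA, likewise stood in none and in 12.9%, and a CArG box in none and in 1.5%. Between 54.4% and 74.4% of the bases in the 8 stretches were G or C, where the median of all stretches was 51.2%.

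The collagen receptor genes moved apart. Itga11 encodes a receptor of fibrillar collagen that is typical of fibroblasts and other mesenchymal cells. It had 8.90, 9.08 and 9.17 FPKM in the CYSP samples, against 320.3, 308 and 307 FPKM in the CK samples. The log2 fold change was -5.02 (SE 0.0344, edgeR adjusted p = 1e-89), and 2.57% of the genes tested had a larger absolute change. Every CYSP sample was far below every CK sample, yet at 2166 counts over the CYSP group the gene was still well measured there. Since the samples are bulk RNA, fewer cells of a type and less RNA per cell cannot be told apart.

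Itga1, whose product binds collagens of basement membranes as well as fibrillar ones, had 5.71, 4.88 and 5.16 FPKM in CYSP samples, against 13.3, 12.3 and 12.8 FPKM in CK samples. Its log2 fold change was -1.20 (SE 0.0734, edgeR adjusted p = 2.13e-25). Itga2, the collagen receptor subunit best known from platelets and epithelia, was the least abundant of the 10 genes in both groups. It had 1.89, 1.76 and 1.92 FPKM in CYSP samples, against 0.689, 0.681 and 0.469 FPKM in CK samples. The log2 fold change was 1.68 (SE 0.202, edgeR adjusted p = 1.09e-11), from 325 counts over the CYSP group and 111 over the CK group. Itga1 and Itga2 are neighbouring protein-coding genes on rat chromosome 2 in RefSeq's GRCr8 annotation, and the one was lower and the other higher in CYSP. Pelo lies within the bounds of Itga1 in that annotation, and whether counting used strand is not stated. Pelo had 26.3 ± 0.843 CPM in CYSP and 23.4 ± 1.00 CPM in CK (mean ± SD, n = 3 each), with an edgeR adjusted p of 0.0613.

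Both laminin receptor genes were higher in CYSP. Itga7, which encodes a laminin receptor known from muscle and also present in glial cells, had 24.8, 24.3 and 22.8 FPKM in CYSP samples, against 2.30, 2.16 and 2.66 FPKM in CK samples. Its log2 fold change was 3.42 (SE 0.0768, edgeR adjusted p = 1.15e-53). Itga3, which binds laminins of epithelial and vascular basement membranes, had 10.2, 10.02 and 10.3 FPKM in CYSP samples, against 1.67, 1.52 and 1.34 FPKM in CK samples. This gave a log2 fold change of 2.83 (SE 0.0905, edgeR adjusted p = 3.24e-43). The lowest CYSP sample was several times the highest CK sample in either gene. Itga6, another laminin receptor gene, went the other way, at 10.1 ± 0.725 CPM in CYSP and 24.5 ± 1.06 CPM in CK.

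The RGD receptor genes Itgav and Itga5 changed little by comparison. Itga8, whose product also binds RGD proteins, went the other way and further, with a log2 fold change of -1.79. Itgav, the shared partner of Itgb3 and Itgb5, had 90.5, 92.0 and 93.6 FPKM in CYSP samples, against 68.9, 68.3 and 67.0 FPKM in CK samples. That is a log2 fold change of 0.52 (SE 0.0277, edgeR adjusted p = 8.19e-29). Itga5, whose product with that of Itgb1 is the main fibronectin receptor, had 39.8, 38.2 and 38.6 FPKM in CYSP samples, against 36.1, 33.0 and 33.3 FPKM in CK samples. Its log2 fold change was 0.27 (SE 0.038, edgeR adjusted p = 1.38e-09), and 71.9% of the genes tested had a larger absolute change. The closest samples of Itga5 were 38.2 FPKM in CYSP and 36.1 FPKM in CK. The authors' deposited table gives Itga5 an adjusted p of 0.154, so its call depends on the test.

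All 3 beta subunit genes were lower. Itgb1, the common partner, remained the most abundant integrin gene, with 348, 344 and 353 FPKM in CYSP samples, against 720.0, 714 and 732 FPKM in CK samples. Its log2 fold change was -0.97 (SE 0.0233, edgeR adjusted p = 1.31e-51). Itgb3, which forms receptors for vitronectin and, on platelets, for fibrinogen, had 4.15, 4.44 and 3.58 FPKM in CYSP samples, against 11.5, 12.1 and 11.7 FPKM in CK samples. The log2 fold change was -1.46 (SE 0.101, edgeR adjusted p = 1.58e-22). Itgb3 was thus the beta subunit gene with the lowest level and the largest difference. Itgb5, a vitronectin receptor subunit, had 34.9, 36.1 and 36.8 FPKM in CYSP samples, against 54.9, 49.97 and 54.7 FPKM in CK samples. The difference was -0.48 on the log2 scale (SE 0.0425, edgeR adjusted p = 2.32e-17), about as large as that of the median gene, since 53.5% of the genes tested had a larger absolute change.

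**Figure D2:**
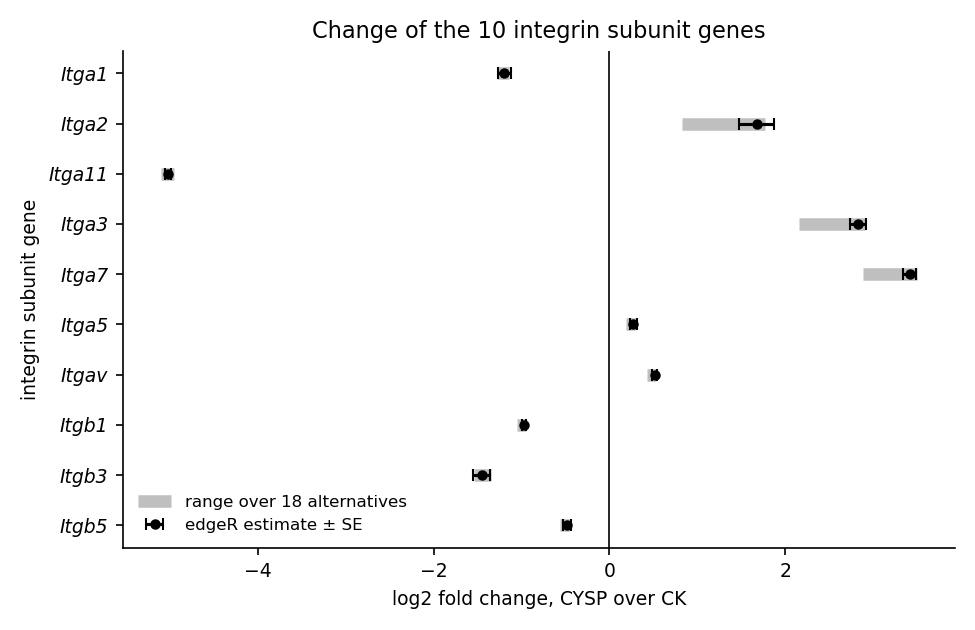
Log2 fold change of the 10 integrin subunit genes, CYSP over CK, with black points and bars for the edgeR estimate and its SE and grey bands for the range over 18 alternative analyses. Itga11 lies at -5.02, Itga7 at 3.42, and no band crosses 0.

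FPKM is scaled to gene length, so levels of different subunits can be ordered. In CYSP the order was Itgb1, Itgav, Itga5, Itgb5, Itga7, Itga3, Itga11, Itga1, Itgb3 and Itga2. In CK it was Itgb1, Itga11, Itgav, Itgb5, Itga5, Itga1, Itgb3, Itga7, Itga3 and Itga2. Neighbours in each order did not overlap over the 3 samples of the group. By the ratio of means, the closest pairs were Itga5 and Itgb5 in CYSP, at 38.9 ± 0.831 and 35.9 ± 0.943 FPKM, and Itga1 and Itgb3 in CK, at 12.8 ± 0.496 and 11.8 ± 0.316 FPKM (mean ± SD, n = 3), a ratio of 1.08 in both cases.

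The make-up of the alpha subunit transcripts differed between the groups. Itgav held 50.8% ± 0.904 of the summed FPKM of the 7 alpha genes in CYSP and 15.8% ± 0.253 in CK (mean ± SD, n = 3 each, here and for the other shares). Itga11 held 5.00% ± 0.0867 in CYSP and 72.3% ± 0.0328 in CK. Itga5 held 21.5% ± 0.388 in CYSP and 7.90% ± 0.211 in CK, although its own mean level was 38.9 FPKM in CYSP and 34.1 FPKM in CK. The shares sum to 100 within a sample, so the drop of Itga11 raises those of the other genes. Itga1, which was lower along with Itga11, held 2.90% ± 0.222 in CYSP and 2.96% ± 0.0692 in CK. By ligand class, the collagen receptor genes held 8.91% ± 0.1796 in CYSP and 75.4% ± 0.0565 in CK. The laminin receptor genes held 18.8% ± 0.527 in CYSP and 0.901% ± 0.0393 in CK. The RGD receptor genes held 72.2% ± 0.558 in CYSP and 23.7% ± 0.0949 in CK. The classes cover only the 7 alpha genes. Outside them, the laminin receptor gene Itga6 had a mean of 1.67 FPKM in CYSP and 4.27 FPKM in CK. Itga8, whose product also binds RGD proteins, had a mean of 2.40 FPKM in CYSP and 8.785 FPKM in CK. Apart from that of Itga1 (exact two-sided permutation p = 0.6), each of these shares had an exact two-sided permutation p of 0.1, the smallest that 3 samples against 3 allow, so none can pass 0.05.

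Itgb1 held most of the transcripts of the 3 beta genes in both groups, while their sum was lower in CYSP. Itgb1 held 89.7% ± 0.217 of the summed FPKM of the 3 beta genes in CYSP and 91.7% ± 0.231 in CK, and Itgb5 held 9.25% ± 0.193 in CYSP and 6.76% ± 0.286 in CK. Itgb3 held 1.04% ± 0.124 in CYSP and 1.499% ± 0.0561 in CK. The summed FPKM of the alpha genes was 181 ± 0.839 in CYSP and 431 ± 10.4 in CK, and that of the beta genes was 389 ± 4.59 in CYSP and 787 ± 11.0 in CK. The ratio of the alpha sum to the beta sum was 0.466 ± 0.00452 in CYSP and 0.548 ± 0.0157 in CK. For each of these 6 quantities the groups did not overlap, with an exact two-sided permutation p of 0.1. The lower alpha sum and the lower ratio rest on Itga11, with a mean of 9.05 FPKM in CYSP and 312 FPKM in CK. It fell by more than the alpha sum did, so the other alpha genes together were higher in CYSP. Without Itga11 the ratio would thus also be higher in CYSP.

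**Figure D3:**
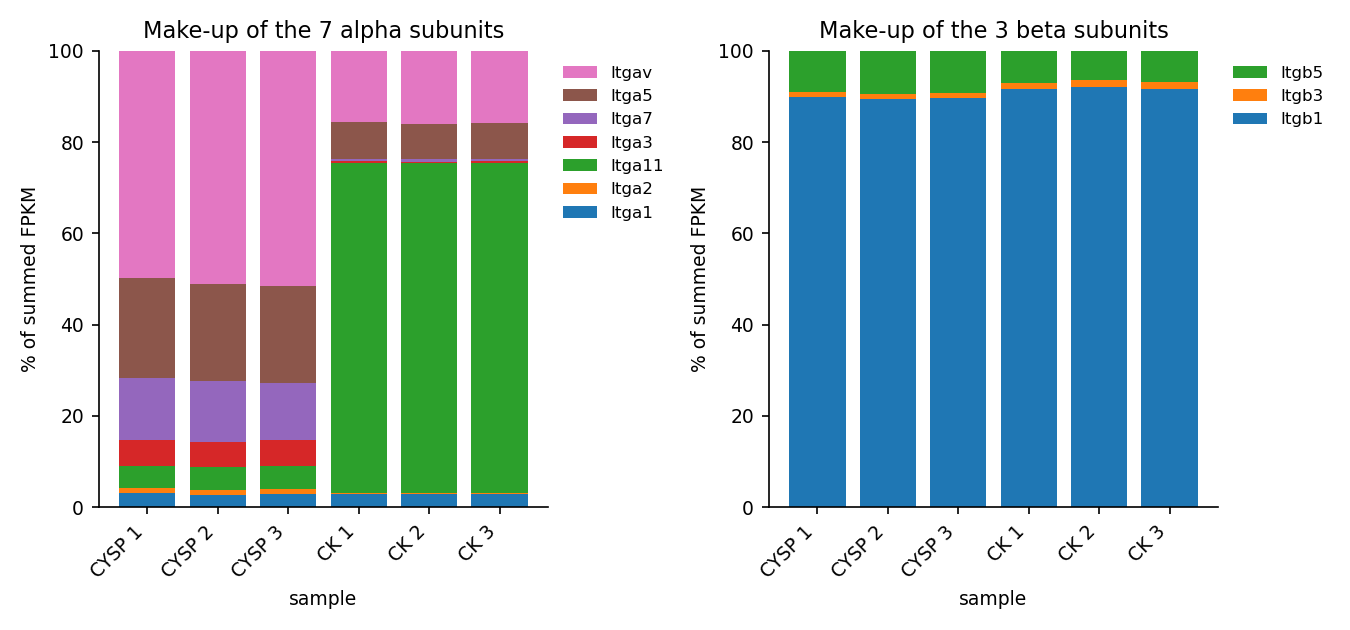
Share of each subunit gene in the summed FPKM of the 7 alpha genes (left) and of the 3 beta genes (right), one bar per sample, CYSP samples left of CK samples. Itga11 takes 72.3% of the alpha sum in CK and 5.00% in CYSP, while Itgb1 takes 89.7% of the beta sum in CYSP and 91.7% in CK.

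The other integrin subunits also went both ways. Of the 16 other subunit genes 11 were tested, of which 3 were higher, 6 were lower and 2 did not pass, with a median log2 fold change of -0.82. As shares, 27.3% were higher and 54.5% lower, against 38.2% and 37.8% of all genes tested. Itgal and Itgb2, which together form the leukocyte receptor LFA-1, and Itgam, a subunit of the macrophage receptor Mac-1, were lower, while Itgax, a subunit of dendritic cells and macrophages, did not pass. Itgal had 7.94 ± 1.73 CPM in CYSP and 132 ± 10.2 CPM in CK. The macrophage and leukocyte markers given above had a lower sum but went both ways, and their part in these values was not tested. Itga9 and Itga8, receptors for tenascin and for nephronectin, had log2 fold changes of -3.07 and -1.79. Itgb8, which pairs with Itgav and binds latent TGF-beta, had 30.9 ± 1.35 CPM in CYSP and 2.65 ± 0.275 CPM in CK, a log2 fold change of 3.54. Itgb7, a leukocyte subunit, and its partner gene Itga4 were higher by log2 fold changes of 4.54 and 0.62, Itgb7 from 178 counts over the CYSP group and 8 over the CK group. Itga10, Itgb4, Itgb6, Itga2b and Itgad stayed under the count filter.

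The matrix ligands also went both ways. Of 37 listed ligand genes 36 were found and 34 tested, of which 13 were higher and 21 lower, with a median log2 fold change of -1.02. The share of higher genes, 38.2%, was that of all genes tested, while 61.8% were lower, against 37.8% of all genes tested. All 4 listed laminin alpha chain genes were higher, and so were both basement membrane collagen genes, Col4a1 and Col4a2. By contrast, 4 of 5 tested fibrillar and 3 of 3 tested type VI collagen genes were lower. The fibrillar gene that was higher, Col3a1, had 24659 ± 242 CPM in CYSP and 19708 ± 360 CPM in CK. Of the 4 laminin beta and gamma chain genes 3 were higher, and Lamb2 was lower (log2 fold change -1.92), as was Nid1, a linker of basement membranes (-0.53). These classes were set after the values were seen. Lama2 and Lama5, laminin chains of muscle and of epithelial and vascular membranes, had log2 fold changes of 4.53 and 4.38. Lama1, the embryonic laminin chain, had 106 counts over the CYSP group and 3 over the CK group, a ratio of 38.6 (95% Clopper-Pearson counting interval 12.9 to 190.3). Fn1, the fibronectin bound by the product of Itga5, had 51561 ± 1023 CPM in CYSP and 18480 ± 201 CPM in CK, a log2 fold change of 1.48. Npnt, the nephronectin bound by the product of Itga8, had 0.710 ± 0.379 CPM in CYSP and 58.4 ± 4.18 CPM in CK. Ccn1, a matricellular ligand of Itgav receptors, and Fbln5, the elastic fibre protein fibulin 5, had log2 fold changes of -4.57 and -4.17. Vtn, the vitronectin gene, had 1 count over the CYSP group and none over the CK group.

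Most of the listed cytoplasmic partners, which bind integrin tails or belong to the adhesion complexes around them, had lower transcripts in CYSP. Of 44 listed partner genes 43 were found and 40 tested, of which 29 were lower, 8 were higher and 3 did not pass, with a median log2 fold change of -0.80. As shares, 72.5% were lower and 20% higher, against 37.8% and 38.2% of all genes tested. Both talin genes, both tested kindlin genes and the 5 actin linkers Vcl, Zyx, Actn1, Actn4 and Flna were lower, a grouping set after the values were seen. Tns2, a tensin, and Tes, testin, which also belong to actin-linked adhesions, were higher by 0.26 and 0.79 on the log2 scale, each read from one of several identifiers. Vcl, vinculin, had 65.1 ± 3.16 CPM in CYSP and 820 ± 29.9 CPM in CK, and Actn1, an alpha-actinin, had a log2 fold change of -3.38. Tgfb1i1, the focal adhesion protein Hic-5, had 4.29 ± 0.518 CPM in CYSP and 185 ± 3.71 CPM in CK. The smooth muscle markers, 5 of 6 also lower, are given above, and their part in these values was not tested. In the complex of Ilk with parvins and PINCH proteins 5 of 6 genes were lower, while Parvb, beta-parvin, was higher by a log2 fold change of 1.84. Ptk2b, the focal adhesion kinase relative Pyk2, and Arhgef7, an exchange factor of Rac, were higher by 1.297 and 1.16 on the log2 scale, whereas Ptk2, focal adhesion kinase itself, had a log2 fold change of -0.67.

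Of 8 genes of latent TGF-beta and its binding proteins, 5 were lower and 2 higher, and Lrrc32 did not pass. Itgav receptors bind and activate the latent products of Tgfb1 and Tgfb3, not those of all 8 genes. As shares, 62.5% were lower and 25% higher, against 37.8% and 38.2% of all genes tested. All 3 ligand genes were lower, with log2 fold changes of -4.63 for Tgfb3, -2.75 for Tgfb2 and -1.04 for Tgfb1. The binding protein genes Ltbp1 (-0.60), Ltbp2 (-1.76), Ltbp3 (1.11) and Ltbp4 (1.34) went both ways.

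**Figure D4:**
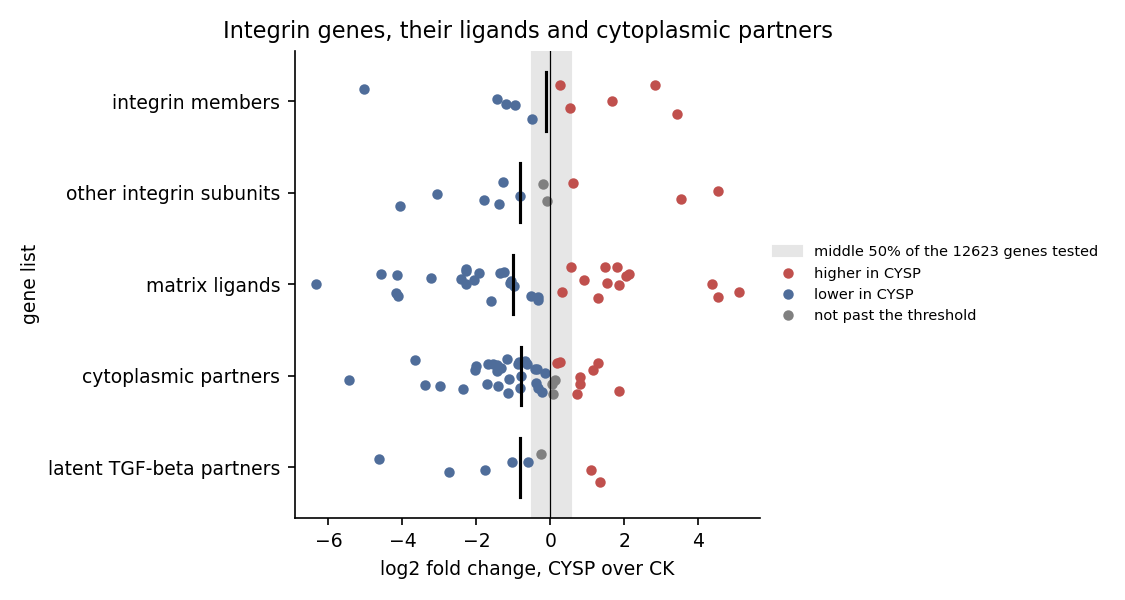
Log2 fold change, CYSP over CK, of each tested gene in the integrin list and 4 related lists, coloured by the edgeR call, with a black line at each list's median and grey for the middle 50% of the 12623 genes tested, from -0.50 to 0.57. The lists of ligands and of cytoplasmic partners have medians of -1.02 and -0.80, and the 10 integrin genes lie on both sides of 0.

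The genes most like Itga11 over the 6 samples, by Euclidean distance of centred log2 CPM among genes with a mean of at least 10 CPM, were Lmcd1, Sertad4 and Lrrc15, at distances of 0.29, 0.31 and 0.40. Lrrc15, a membrane protein of mesenchymal stromal cells, had 2.27 ± 0.0915 CPM in CYSP and 96.1 ± 5.04 CPM in CK. With 2 groups of samples, this likeness is mainly a like fold change.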

How the data were processed

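Poly(A)-enriched RNA from 3 CYSP and 3 CK samples was sequenced. The submitters' processing notes name RSEM, HISAT2, fastp 0.18.0 and StringTie 1.3.1 without their roles. Build, annotation and counting tool are not given in the sources used. The deposited table holds the authors' raw counts and FPKM for each gene in each sample. If RSEM made the deposited counts, they are rounded estimates. It also holds the authors' log2 fold change and the authors' p-values, from a test not given in the sources used here.

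Counts were tested with edgeR 4.0.16 in R 4.3.3 (filterByExpr, TMM scaling, robust quasi-likelihood fit, Benjamini-Hochberg adjustment), which kept 12623 genes, while 6878 had no count and 3590 too few. CPM are TMM-scaled, and SE was derived from the F statistic. Shares used the authors' deposited FPKM with exact permutation tests (scipy 1.17.1). A symbol on several identifiers was read from that with the most counts. The procedure was checked on simulated counts in which only a small part of the genes was changed, in both directions. That check does not cover data in which most genes tested differ, as here. Of 149 listed symbols 147 were found, and the others were not analysed here. Alternatives used DESeq2 1.42.0, limma 3.58.1 (voom, and trend on log2(FPKM + 1)), other scalings, filters and assumed dispersions. From each list up to 3 genes past the threshold with the largest change in each direction and a mean of at least 1 CPM were taken for naming, of which a selection is printed. Fn1, Vtn, Itga6, Itgam, Itgb2, Itgax, Lamb2, Nid1, Tns2, Tes, Ltbp1, Col4a1, Col4a2, Zyx, Actn4, Flna, Ptk2, Tgfb1, Lrrc32 and Pelo fall outside that rule and were chosen after their values were seen. So do Adgre1 and Col3a1, likewise chosen after their values were seen. The integrin genes and all lists were chosen with earlier results of these data known.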

Additional observations from a re-analysis of the deposited data

How the results depend on the processing

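Over 18 alternatives per integrin gene, none of the 180 fold changes reversed. Of the 180, 12 lost their call, all of them under glmTreat or an assumed coefficient of variation. Those settings change the test and leave the estimate nearly as it was, so they could not have shown a reversal. Against a log2 fold change of 1 (glmTreat), 3 integrin genes were higher and 3 lower, 3 cytoplasmic partners were higher and 17 lower, and 3 latent TGF-beta genes were lower. With an assumed coefficient of 0.2, 3 integrin genes were higher and 4 lower. With 0.4, 3 integrin genes were higher and 2 lower, 2 partners were higher and 14 lower, and 1 latent TGF-beta gene was higher and 3 lower. Over all genes, 1504 were higher and 1217 lower with glmTreat, 3102 and 2801 with a coefficient of 0.2, and 1496 and 1209 with 0.4. Leaving out each sample in turn, or changing the scaling, filter or tool, ended no integrin call. The log2(FPKM + 1) scale, which compresses low genes, gave Itga2 a log2 fold change of 0.83. CPM in place of FPKM, a pool of all integrin subunits, and leaving out each sample kept the direction of the shares, sums and alpha to beta ratio, except that the share of Itga1, which did not differ beyond its spread, changed sign without CYSP replicate 2 (CYSP minus CK 0.0304, range -0.187 to 0.0304 percentage points over the left-out samples). None of these settings left out Itga11, on which the direction of the alpha sum and of the ratio rests. Same-numbered samples did not deviate together (correlations of -0.000633, 0.0185 and -0.00885). These values gave no sign of a pairing by number, but they cannot exclude a shared culture or animal. With the replicate number as a block, 5 integrin genes were higher and 5 lower, and 4773 and 4712 of all genes. Depth limits mainly Itga2, with 28 to 44 counts in a CK sample.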
